A study of Homo sapiens with 12 samples.

Results

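The kinesin genes are the KIF genes with a number in their symbol together with KIFC1, KIFC2 and KIFC3. Of the 19775 genes measured, 41 belonged to this family, and each was read from the probe set with its highest mean signal. They were split by role into 12 mitotic kinesins, 15 transport kinesins and 14 others. KIF4B, a near-copy of KIF4A, was listed as mitotic but had no probe set of its own, so it was not measured. Whether the KIF4A probe set also reads KIF4B RNA was not tested. A mean signal of at least 64 was reached by all 12 mitotic, 11 transport and 3 other kinesins. The remaining 15 kinesins are called dim, because low signals on these arrays spread widely between replicates.

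RNA was taken from cells labelled PC3, an established line from a human prostate cancer, and hybridised to Affymetrix expression arrays that carry 54675 probe sets. There were 4 groups of 3 samples: vehicle alone, per the treatment protocol (control), 2.5 µM of Wee1 inhibitor II, 40 nM of 17-AAG, or both drugs, with 17-AAG given 24 h after Wee1 inhibitor II and RNA taken 48 h after 17-AAG. Wee1 is the kinase that keeps CDK1 inactive until a cell is ready to divide, and 17-AAG inhibits the chaperone Hsp90. The title frames the question as whether inhibiting Wee1 sensitises such cells to Hsp90 inhibition. Control replicate 2 was removed by the submitters because its signal was weak, which leaves 2 control arrays and 3 in each treated group. Nothing says that replicates were separate cultures, so every p-value measures the spread between these samples only, which may be technical.

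Most markers on the 11 arrays went against the label. Of 8 epithelial markers, EPCAM, HOXB13, CDH1, KRT19 and GRHL2 stayed at or below 26.2, 11.3, 13.2, 7.81 and 22.9 and KRT8 at or below 45.5, while KRT18 read 453 to 650 and ESRP1 142 to 728. CTNNA1 and STAT3, which PC3 cells are known to lack, read 2559 to 5040 and 819 to 1296. The 6 measured pigment cell markers summed to 31680 to 33240 in control, 25705 to 28256 under Wee1 inhibitor II, 39321 to 44640 under 17-AAG and 46545 to 48136 under both drugs, and MLANA was never below 2865. The 8 epithelial markers summed to 808 to 875, 673 to 836, 853 to 913 and 1281 to 1364 in the same order. The 4 blood cell markers never summed above 44.7, and 5 fibroblast markers, led by LUM, summed to between 427 and 1907. Control replicate 2 differed. It read 1096 for EPCAM, 2087 for HOXB13, 615 for KRT8, 2238 for KRT18 and 66.1 for GRHL2, above the 11 arrays. Its CDH1 (5.55) and KRT19 (1.58) lay within the range of the 11, and its ESRP1 (48.5) lay below it. It read 1.57 for CTNNA1, 7.54 for STAT3 and 2.67 for MLANA. The Pearson correlation of control replicate 2 with the others across probe sets was 0.825 to 0.833, against 0.913 or more between any pair of the 11. The gap between 3′ and 5′ ACTB probe sets, a measure of RNA integrity, was 0.69 ± 0.03 (SD, n = 2, log2) in control, 0.68 ± 0.09 (n = 3) under Wee1 inhibitor II, 0.96 ± 0.08 (n = 3) under 17-AAG and 0.96 ± 0.05 (n = 3) under both. The same gap for GAPDH stayed near 0, at -0.063 ± 0.0043, -0.050 ± 0.0355, -0.037 ± 0.037 and -0.012 ± 0.021 in the same order. The part of cell identity or RNA integrity in the kinesin results was not tested.

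Signals are given on the deposited linear scale and differences as log2 fold changes with the standard error of a limma fit over the 11 arrays. A gene was called, and is said to have risen or fallen, at a Benjamini-Hochberg adjusted p under 0.05 over all 19775 genes.

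Kinesins are motors that use ATP to move along microtubules or to take them apart. Mitotic kinesins build the spindle, move and align chromosomes and prepare the cleavage site, and their genes are transcribed mainly shortly before and during division. Transport kinesins carry vesicles, mitochondria and other cargo through the cell whether or not it divides. Promoters of genes expressed late in the cell cycle often pair a cell cycle homology region (CHR), bound by the MuvB-containing complexes that repress or activate these genes, with CCAAT boxes bound by NF-Y.

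The promoters of mitotic kinesins are shown first, since many of them hold this pair of motifs. RefSeq windows of 300 bases on GRCh38.p14 (250 before and 50 after each annotated start) were searched on both strands for the CHR letters TTTGAA, for a variant that reads the same on both strands (TTCGAA), and for the letters CCAAT of the box. Windows were matched for all 12 mitotic, 11 of 15 transport and 10 of 14 other kinesins. Stretches from 100 bases before to 20 after the start follow, in the direction of transcription, with the CHR letters and the CCAAT boxes of either strand in capitals, so that a reverse-strand CHR appears as TTCAAA and a reverse-strand box as ATTGG. They lie at chr10:92593030-92593149 (KIF11, plus strand), chrX:70290004-70290123 (KIF4A, plus), chr1:200620732-200620851 (KIF14, minus), chr15:69414249-69414368 (KIF23, plus), chr6:33391723-33391842 (KIFC1, plus) and chr16:29790651-29790770 (KIF22, plus), and the transport gene KIF3B at chr20:32277551-32277670 (plus) is shown for contrast.
KIF11: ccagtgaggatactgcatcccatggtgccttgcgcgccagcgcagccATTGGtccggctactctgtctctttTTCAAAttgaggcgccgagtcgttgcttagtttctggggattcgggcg
KIF4A: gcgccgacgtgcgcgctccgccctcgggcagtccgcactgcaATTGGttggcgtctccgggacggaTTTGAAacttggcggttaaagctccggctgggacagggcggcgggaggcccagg
KIF14: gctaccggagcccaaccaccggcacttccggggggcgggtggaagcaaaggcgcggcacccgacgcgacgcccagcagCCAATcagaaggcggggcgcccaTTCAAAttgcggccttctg
KIF23: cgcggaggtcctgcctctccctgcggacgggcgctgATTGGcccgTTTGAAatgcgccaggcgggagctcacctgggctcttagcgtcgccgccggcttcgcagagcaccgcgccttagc
KIFC1: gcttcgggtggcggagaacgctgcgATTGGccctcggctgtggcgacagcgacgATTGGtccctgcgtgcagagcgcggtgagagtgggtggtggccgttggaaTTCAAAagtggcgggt
KIF22: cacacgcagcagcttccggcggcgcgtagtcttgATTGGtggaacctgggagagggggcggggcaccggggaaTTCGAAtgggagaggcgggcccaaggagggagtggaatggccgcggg
KIF3B: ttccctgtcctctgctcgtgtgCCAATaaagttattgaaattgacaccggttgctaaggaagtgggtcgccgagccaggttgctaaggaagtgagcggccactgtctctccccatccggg

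KIF11, KIF4A and KIF14 each hold 1 CCAAT box with 1 CHR downstream of it, and KIFC1 holds 2 boxes before its CHR. In KIF23 the motifs lie closest together, the CHR starting 55 bases and the CCAAT box 64 bases before the start. KIF22 carries the variant CHR, and the KIF3B stretch holds a CCAAT box without any CHR. KIF22 has 2 listed starts, so the 12 mitotic genes have 13 promoters. A CHR was found in 11 of the 13 mitotic promoters (84.6%), a CCAAT box in 10 (76.9%) and both in 9 (69.2%). Of all 35116 promoters in the table, 16.4% held a CHR, 34.6% a CCAAT box and 6.38% both. The 16 transport promoters were nearer those shares: 1 held a CHR (6.25%), 5 a CCAAT box (31.2%) and 1 both (6.25%). Both motifs fell inside the printed stretch in 8 mitotic promoters (61.5%), 0 transport promoters and 1.37% of all promoters. Among mitotic genes, KIF15 had a CHR only, KIF20A had CCAAT boxes only, and neither motif was in the KIF2C window. A match of letters is not evidence of binding, and these shares were not tested.

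**Figure D1:**
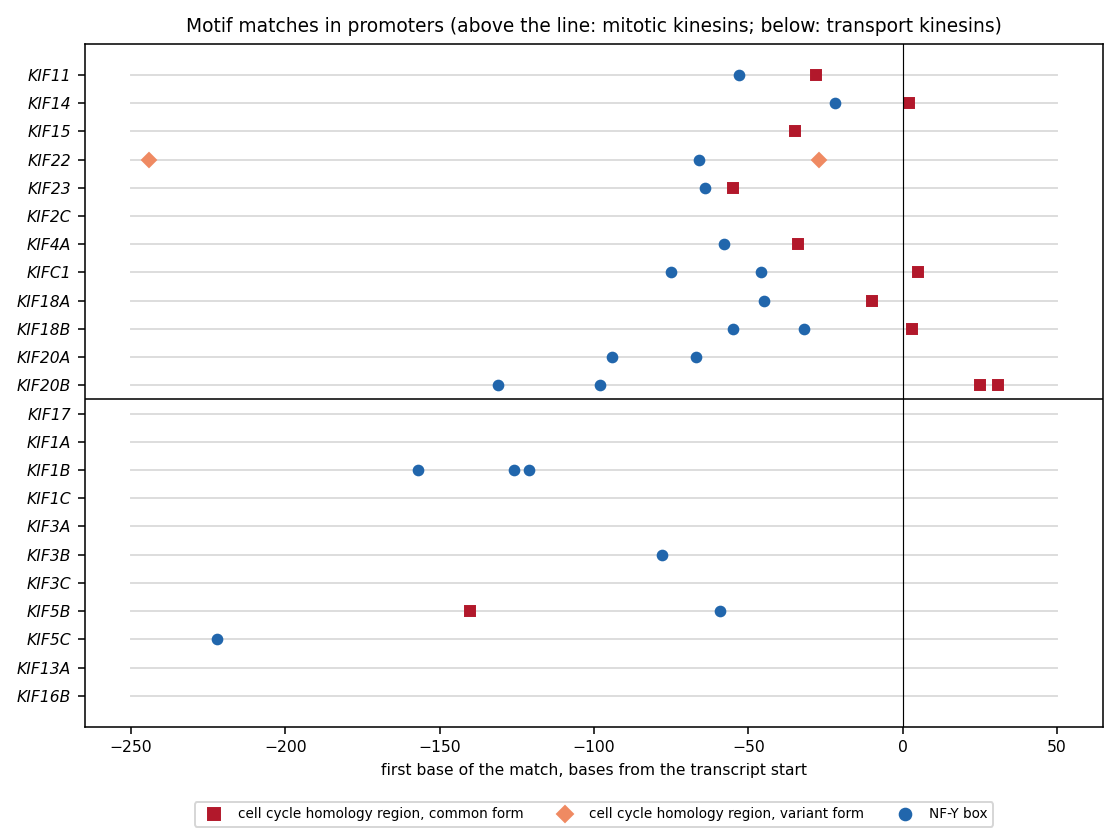
Positions of motif matches in the promoters of the 12 mitotic kinesins (above the line) and 11 transport kinesins (below the line), in bases from the annotated transcript start, with squares and diamonds for the CHR and its variant and circles for the CCAAT box that NF-Y binds. Most matches in mitotic genes lie within 100 bases of the start, and the only transport gene with a CHR is KIF5B, 140 bases before its start.

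With both drugs, all 12 mitotic kinesins fell against control, to between 19.4% (KIFC1) and 45.4% (KIF22) of the control signal. Their median log2 fold change was -1.76, against 0.11 over all genes tested, or -1.87 relative to that shift. In this comparison 11.3% of all genes were called lower, and 21.8% of genes with a mean signal of at least 64. The 3 both-drug arrays lay below both control arrays for 12 of 12, where 20.8% of all genes had such separate groups. Median deviations of the 12 genes from the control mean were -1.95, -1.77 and -1.71 on the 3 both-drug arrays. In bulk RNA, fewer cells close to division and less of these transcripts per cell cannot be told apart. The same arrays had the highest pigment marker sums and, with the 17-AAG arrays, the wider ACTB gap given above. Outside the list of 12 lie KIF2A, a depolymerase of spindle poles and neurites (-0.39), and CENPE, a kinetochore kinesin, both given below.

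**Figure D2:**
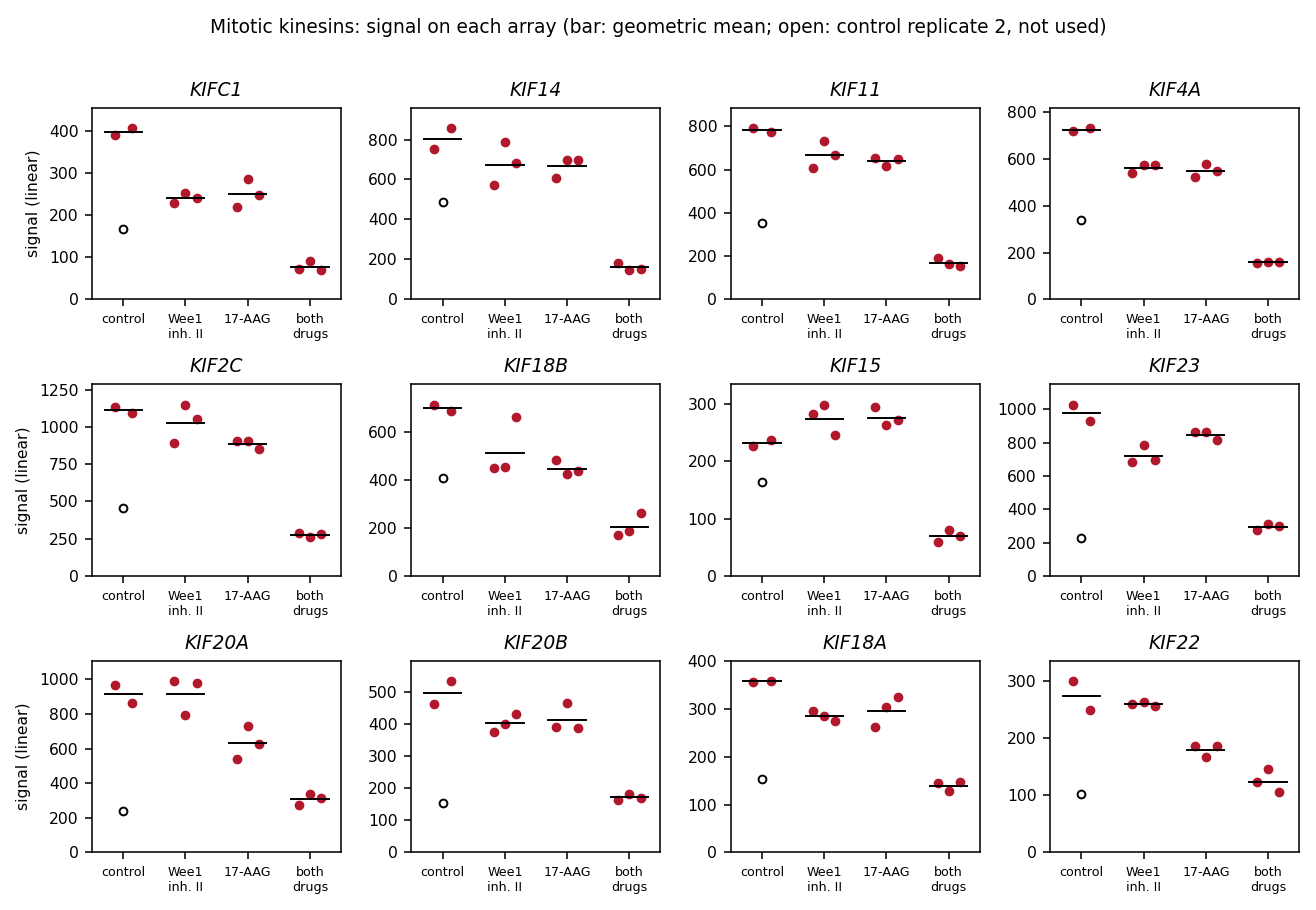
Signal (linear scale) of each of the 12 mitotic kinesins on every array by group, with a bar at the geometric mean of the arrays used and an open circle for control replicate 2, which was not used. In every panel the 3 both-drug arrays lie below the other arrays used.

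One set of motors assembles and shapes the spindle. KIF11, the motor with heads at both ends that slides opposed microtubules apart, read 792 and 775 in control, 610.3, 734 and 668 under Wee1 inhibitor II, 655, 617 and 649 under 17-AAG and 191, 162 and 154 under both. The both-drug arrays were the lowest 3 of the 11, and KIF11 fell by 2.22 on the log2 scale (SE 0.12, adjusted p = 1.55e-05), to 21.5% of control. KIFC1, a minus-end motor that focuses spindle poles and clusters extra centrosomes, read 389.7 and 406 in control, 229.7, 253 and 241 under Wee1 inhibitor II, 218, 285 and 249 under 17-AAG and 72.5, 90.4 and 70.4 under both. Its arrays formed 3 tiers, with control highest, both single drugs between and both drugs lowest, and the log2 fold change with both drugs was -2.36 ± 0.14 (adjusted p = 2.47e-05). KIF15, which can take over the work of KIF11 when that motor is blocked, read 227 and 237 in control, 282, 299 and 245 under Wee1 inhibitor II, 294, 262 and 273 under 17-AAG and 59.6, 80.5 and 70.0 under both. Every single-drug array of KIF15 was above both controls, whereas the both-drug arrays were below them (-1.74 ± 0.14 (adjusted p = 8.14e-05)). KIF4A, a chromosome-arm motor that also limits microtubule growth at the midzone, read 717 and 730.2 in control, 539, 572 and 574 under Wee1 inhibitor II, 524, 577 and 547 under 17-AAG and 156, 160.1 and 158 under both. The both-drug arrays of KIF4A differed among themselves by only a few units, and its log2 fold change was -2.19 ± 0.08 (adjusted p = 5.73e-06).

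Motors that move and align chromosomes fell as well. KIF2C, the depolymerase that corrects faulty kinetochore attachments, read 1137 and 1091 in control, 896, 1151 and 1055 under Wee1 inhibitor II, 906, 904 and 852 under 17-AAG and 289, 263 and 279 under both. Control and Wee1 inhibitor II arrays overlapped for KIF2C, and the both-drug arrays stood apart at 24.8% of control (-2.01 ± 0.11 (adjusted p = 1.98e-05)). KIF18A, which dampens chromosome swings on the spindle, read 358 and 359 in control, 295, 285 and 275 under Wee1 inhibitor II, 262, 305 and 326 under 17-AAG and 145, 128 and 147 under both, a fall of 1.36 on the log2 scale (SE 0.11, adjusted p = 8.44e-05). Its single-drug arrays lay between control and both drugs without touching either. KIF18B, a motor that shortens astral microtubules, varied most among replicates: 450.3, 454 and 659.8 with Wee1 inhibitor II and 170.1, 188 and 262 with both drugs, against 712 and 684 in control. The both-drug change of KIF18B was -1.78 ± 0.22 (adjusted p = 0.000594). KIF22, a DNA-binding motor that pushes chromosome arms away from the poles, changed least, from 299 and 248 in control to 123, 145 and 106 with both drugs (-1.14 ± 0.14 (adjusted p = 0.000635)).

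The motors of the midzone and of cytokinesis followed. KIF23, the motor of the centralspindlin complex, read 1028 and 928 in control, 687, 785 and 694 under Wee1 inhibitor II, 862, 866 and 817 under 17-AAG and 273, 310.2 and 302 under both. Groups were ordered control, 17-AAG, Wee1 inhibitor II and both drugs without overlap, and the both-drug change was -1.73 ± 0.10 (adjusted p = 2.12e-05). KIF20A, which brings the chromosomal passenger complex to the midzone, read 966 and 866 in control, 991, 796 and 981 under Wee1 inhibitor II, 543, 734 and 629 under 17-AAG and 272, 337 and 318 under both. The Wee1 inhibitor II arrays of KIF20A covered the control values, the 17-AAG arrays were lower, and the both-drug arrays were lowest (-1.57 ± 0.16 (adjusted p = 0.000259)). KIF14, which recruits citron kinase to the midbody, read 751 and 857 in control, 570.2, 785 and 680.5 under Wee1 inhibitor II, 607, 698 and 698 under 17-AAG and 183, 147 and 154 under both. It was 4.99-fold lower than control (-2.32 ± 0.16 (adjusted p = 3.99e-05)), second only to KIFC1 among the 12. KIF20B, another late-mitotic motor, fell from 462 and 534 to 165, 182 and 171 (-1.53 ± 0.12 (adjusted p = 6.93e-05)).

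Further probe sets of mitotic kinesins were few. There were 6 in 5 genes, 4 of them lower with both drugs and 3 called lower. Those of KIF14 and KIF2C with signals above 64 both gave a log2 fold change of -1.98, and a further set of KIF22 gave -0.73 without a call. The other sets of KIF20B were dim and read 0.40 and 1.01 (neither called). On the unused control replicate 2, all 12 mitotic kinesins were lower than on both other controls, at 102 to 486. The share of all genes lower there was not computed, so this count shows nothing particular to mitotic kinesins. With that array included unweighted, 7 of the 12 were called lower with both drugs, and with array weights, an alternative chosen after seeing the data, 12.

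With each drug alone, 3 of the 12 mitotic kinesins were called. With Wee1 inhibitor II 3 of 12 fell and 0 rose against control, where 10.3% of all genes were called lower and 24.9% in either direction. Among the 9354 genes with a mean signal of at least 64, a level all 12 reached, 20.2% were called lower. The Wee1 inhibitor II arrays lay below both controls for 7 of the 12, where 20.1% of all genes had such separate groups. The 3 called lower were KIFC1 (-0.72 ± 0.14 (adjusted p = 0.0079)), KIF23 (-0.44 ± 0.10 (adjusted p = 0.0141)) and KIF4A (-0.37 ± 0.08 (adjusted p = 0.00968)). With control replicate 2 included, the KIF23 value turned to 0.26. The median over the 12 was -0.28, or -0.40 relative to the median of all genes, which was 0.12. KIF15 (0.24 ± 0.14) and KIF20A (0.01 ± 0.16) had positive values without a call, and the 95% interval -0.37 to 0.38 of KIF20A bounds the change that these arrays leave possible. Without control replicate 3 only 1 of the 12 was called.

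With 17-AAG, 3 of 12 mitotic kinesins fell and 0 rose, where 6.80% of all genes were called lower and 16.7% in either direction. Among genes with a mean signal of at least 64, 13.0% were called lower. The 17-AAG arrays lay below both controls for 10 of the 12, where 21.2% of all genes had such separate groups. KIFC1 (-0.68 ± 0.14 (adjusted p = 0.0159)) and KIF4A (-0.40 ± 0.08 (adjusted p = 0.0102)) were called with either drug, and KIF22 (-0.60 ± 0.14 (adjusted p = 0.0235)) was the other one called with 17-AAG. The KIF22 signals with 17-AAG were 186, 167 and 185, below both controls at 299 and 248 and below all Wee1 inhibitor II arrays at 259, 262 and 256. The median over the 12 was -0.31, against 0.01 over all genes. KIF20A had a value of -0.54 ± 0.16 (adjusted p = 0.0615) and KIF18B one of -0.65 ± 0.22 (adjusted p = 0.0873), neither called. Only 1 of the 12 was called without control replicate 3 and 0 without control replicate 1.

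Set against each other, Wee1 inhibitor II and 17-AAG differed in 2 mitotic kinesins, both higher with Wee1 inhibitor II, where 18.7% of all genes differed, 10.2% being called higher and 8.52% lower. KIF20A differed by 0.54 ± 0.15 (adjusted p = 0.0367) and KIF22 by 0.53 ± 0.13 (adjusted p = 0.0227). Leaving out 1 array ended one or both of these calls in several cases: 0 were called without replicate 1 or replicate 3 of either single-drug group, and 1 without replicate 2 of either, without control replicate 1 or 3 or without both-drug replicate 3. For KIF11 the difference was 0.06 (95% interval -0.18 to 0.31).

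Both drugs together lowered mitotic kinesins below each drug alone. Against 17-AAG, 12 of 12 fell with a median of -1.60, where 8.43% of all genes were called lower and 15.2% had separate groups in that direction. Against Wee1 inhibitor II, 12 of 12 fell with a median of -1.61, where the shares were 6.84% and 15.9%. The both-drug arrays lay below every array of the single-drug group for all 12 genes in each of these comparisons. The smallest difference against 17-AAG was that of KIF22 (-0.53 ± 0.13 (adjusted p = 0.0215)) and the greatest that of KIF14 (-2.05 ± 0.14 (adjusted p = 8.14e-05)). KIF11, the sliding motor, was at 26.3% of its 17-AAG signal and 25.2% of its Wee1 inhibitor II signal.

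The interaction compares the both-drug change with the sum of the single-drug changes on the log2 scale. All 12 mitotic kinesins had negative values, 10 were called, and the median was -1.06, where 6.97% of all genes were called negative and 11.8% in either direction. KIF15 had the greatest value, -2.23 ± 0.19 (adjusted p = 0.000891): the single drugs summed to 0.49 and both together gave -1.74. For KIF11 the sum was -0.52 and the measured change -2.22, an interaction of -1.70 ± 0.16 (adjusted p = 0.00116). KIFC1, the pole-focusing motor, had a sum of -1.40 and an interaction of -0.97 ± 0.19 (adjusted p = 0.0176). Neither KIF18B (-0.69 ± 0.30 (adjusted p = 0.194)) nor KIF22 (-0.46 ± 0.19 (adjusted p = 0.181)) was called. The remaining called values ran from -1.80 (KIF14, adjusted p = 0.00239) to -0.76 (KIF18A, adjusted p = 0.0166). The comparisons with control and the interaction share the 2 control arrays.

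**Figure D3:**
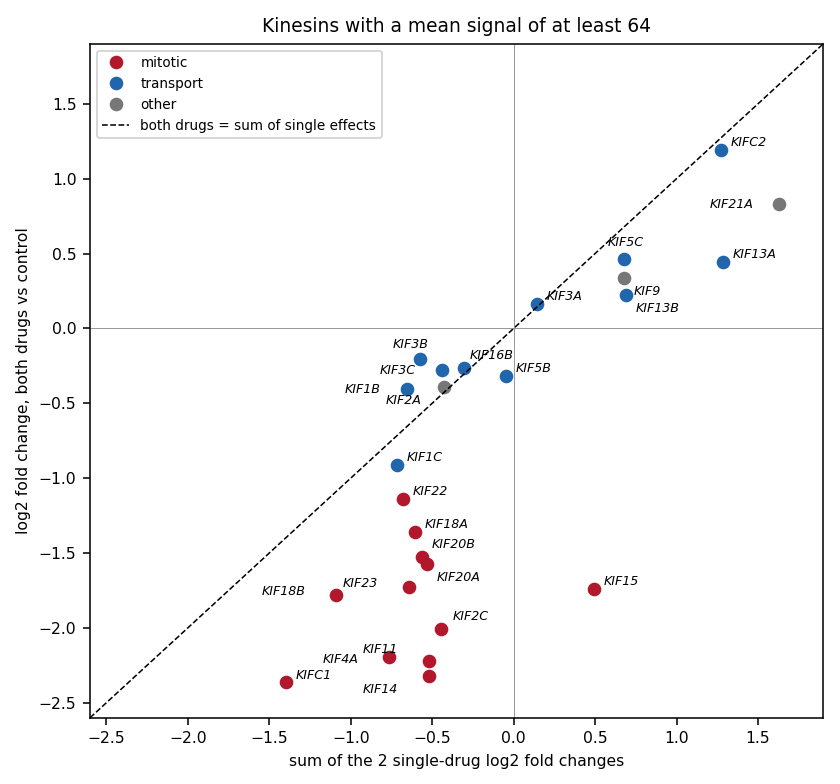
Log2 fold change with both drugs against the sum of the single-drug log2 fold changes for the 26 kinesins with a mean signal of at least 64, 1 point per gene, and a dashed line where they are equal. The 12 mitotic kinesins lie below the line, KIF15 farthest from it, and transport kinesins lie on both sides of it.

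With both drugs, most transport kinesins changed less than the mitotic ones, and they changed in both directions. Of the 15, 2 rose (KIFC2 and KIF13A) and 2 fell (KIF1C and KIF5B), where 28.0% of all genes were called in either direction and 16.7% higher. The median over the 15 was -0.20, and -0.31 relative to all genes. On the 3 both-drug arrays the medians of the 11 brighter genes deviated from control by -0.18, -0.27 and -0.13. The share of called members was thus close to that of all genes, unlike the count for mitotic kinesins; a difference between these lists was not tested. Without control replicate 1, control replicate 3 or both-drug replicate 3, 2 of the 15 were called.

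**Figure D4:**
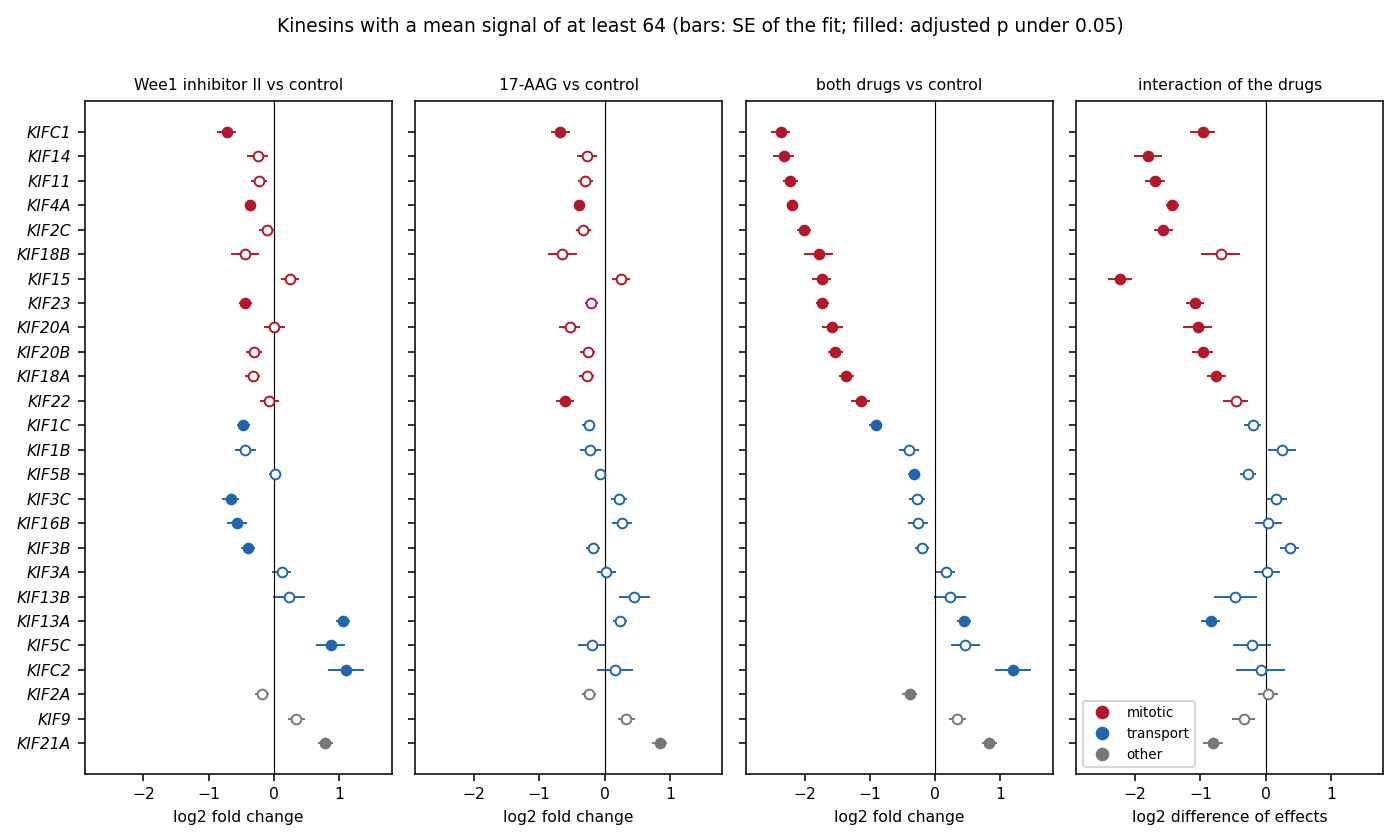
Log2 fold changes against control with each treatment, and the interaction of the drugs, for the 26 kinesins with a mean signal of at least 64; bars are standard errors of the fit and filled points have an adjusted p under 0.05. Mitotic kinesins form a block at -2.36 to -1.14 in the both-drug panel, while transport kinesins spread around 0 from -0.91 to 1.19.

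The conventional kinesin heavy chains, which carry vesicles and mitochondria along with light chains, behaved differently from each other. KIF5B, the broadly expressed heavy chain, read 1988 and 2147 in control, 1969.7, 2248 and 2061 under Wee1 inhibitor II, 2006, 2055 and 1878 under 17-AAG and 1611, 1717 and 1641 under both. Its both-drug arrays were all below the other 8, but the change was small (-0.32 ± 0.09 (adjusted p = 0.0309)) and the call was lost under 9 alternative analyses. Further KIF5B sets gave -0.44 (called) and -0.36 (not called). KIF5C, a heavy chain best known from neurons, read 85.6 and 87.0 in control, 182, 145 and 147 under Wee1 inhibitor II, 96.6, 75.6 and 59.1 under 17-AAG and 120.4, 139 and 101 under both. Wee1 inhibitor II arrays were the highest and did not overlap any other group (0.87 ± 0.22 (adjusted p = 0.0217)), and the both-drug value was 0.46 ± 0.22 (adjusted p = 0.171), not called. The other KIF5C sets were dim and gave 0.73 and 0.60 with Wee1 inhibitor II and -0.15 and -1.66 with both drugs, without a call. With the 3 sets averaged, the KIF5C value with both drugs turned to -0.45, not called, the call with Wee1 inhibitor II was lost (0.73, adjusted p = 0.0505) and both drugs against Wee1 inhibitor II was called (-1.18, adjusted p = 0.00653). KIF5A was dim.

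The kinesin-2 motors, which work in pairs in cilia and vesicle transport, showed a drop with Wee1 inhibitor II in the partners KIF3B and KIF3C. KIF3C read 347 and 279 in control, 195, 190.0 and 203 under Wee1 inhibitor II, 364, 406 and 326 under 17-AAG and 258, 252 and 259.7 under both. The Wee1 inhibitor II arrays were the lowest and the 17-AAG arrays overlapped control, with a log2 fold change of -0.67 ± 0.12 (adjusted p = 0.00546) for the first. KIF3B read 409 and 379 in control, 276, 328 and 297 under Wee1 inhibitor II, 359, 341 and 342 under 17-AAG and 360.4, 309 and 358 under both. It fell with Wee1 inhibitor II (-0.40 ± 0.11 (adjusted p = 0.0295)) but not enough for a call with both drugs (-0.21 ± 0.11 (adjusted p = 0.215)). KIF3A, the common partner of both, read 184 and 206 in control, 239, 217 and 181 under Wee1 inhibitor II, 209.5, 212 and 174 under 17-AAG and 216, 236 and 202 under both. All groups of KIF3A overlapped, and its both-drug change was 0.16 (95% interval -0.18 to 0.50). A second KIF3A probe set gave -0.32 with Wee1 inhibitor II where the first gave 0.12, neither called. Second sets of KIF3B and KIF3C gave -0.19 and -0.30, in the same direction without a call. The KIF3B call with Wee1 inhibitor II was lost under 9 alternative analyses.

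Kinesin-3 motors carry synaptic vesicle precursors, endosomes and other membranes. KIF13A, which moves recycling endosomes and melanosome cargo, read 304 and 331 in control, 628, 656 and 692 under Wee1 inhibitor II, 363, 344 and 416 under 17-AAG and 407, 432 and 456 under both. The Wee1 inhibitor II arrays were at 207% of control and above every other array (1.05 ± 0.11 (adjusted p = 0.000377)), and both drugs gave a smaller rise (0.44 ± 0.11 (adjusted p = 0.016)). KIF13A was the only transport kinesin with a called interaction (-0.84 ± 0.14 (adjusted p = 0.00914)), where 1 of 15 compares with 11.8% of all genes. A second of the 6 KIF13A sets gave 0.96 with Wee1 inhibitor II. Averaging the 6 sets ended the KIF13A calls with Wee1 inhibitor II (0.67, adjusted p = 0.0714) and both drugs (0.31, adjusted p = 0.406). The interaction (-0.23, adjusted p = 0.747) and both drugs against Wee1 inhibitor II (-0.36, adjusted p = 0.346) were then not called either. KIF16B, an early endosome motor, read 119.8 and 139 in control, 78.7, 95.6 and 87.4 under Wee1 inhibitor II, 154, 136 and 176 under 17-AAG and 111, 94.2 and 118 under both. The Wee1 inhibitor II arrays were below control and overlapped the both-drug arrays (-0.57 ± 0.15 (adjusted p = 0.0284)), though a dim second set gave 0.42, not called. The KIF16B call with Wee1 inhibitor II was lost under 8 alternative analyses. KIF1C, which moves integrin-bearing vesicles, read 164 and 189.8 in control, 136, 128 and 119 under Wee1 inhibitor II, 147, 152 and 147 under 17-AAG and 98.9, 93.7 and 89.1 under both. Groups were ordered control, 17-AAG, Wee1 inhibitor II and both drugs without overlap, and the both-drug change was -0.91 ± 0.10 (adjusted p = 0.000308). The other KIF1C sets were dim, at -1.07 (not called) and 2.43 (called), so the fall rests on 1 probe set. KIF1B, a mitochondrial and vesicle motor, read 739 and 591 in control and 523, 437 and 548 with both drugs, a value of -0.40 ± 0.16 (adjusted p = 0.101) that was not called, and further sets gave 0.34 and -0.31, with a dim one at -1.55, none called. KIF13B, a relative of KIF13A, read 82.1 and 91.1 in control and 76.3, 111 and 122 with both drugs; these groups overlapped (0.23 ± 0.24 (adjusted p = 0.58)).

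KIFC2, a minus-end motor of the cell body and axons, read 59.8 and 34.6 in control, 109, 89.6 and 96.0 under Wee1 inhibitor II, 45.6, 42.7 and 67.9 under 17-AAG and 121, 92.0 and 100.4 under both. Both groups given Wee1 inhibitor II were above all control and 17-AAG arrays, at 215% of control without 17-AAG (1.11 ± 0.28 (adjusted p = 0.0203)) and 228% with it (1.19 ± 0.28 (adjusted p = 0.0126)). The control arrays of KIFC2 differed widely from each other, and a second KIFC2 set gave 1.25 with both drugs. The 4 dim transport kinesins KIF1A, KIF5A, KIF17 and KIFC3 ranged from 1.17 to 46.1 over the 11 arrays and were not called against control.

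**Figure D5:**
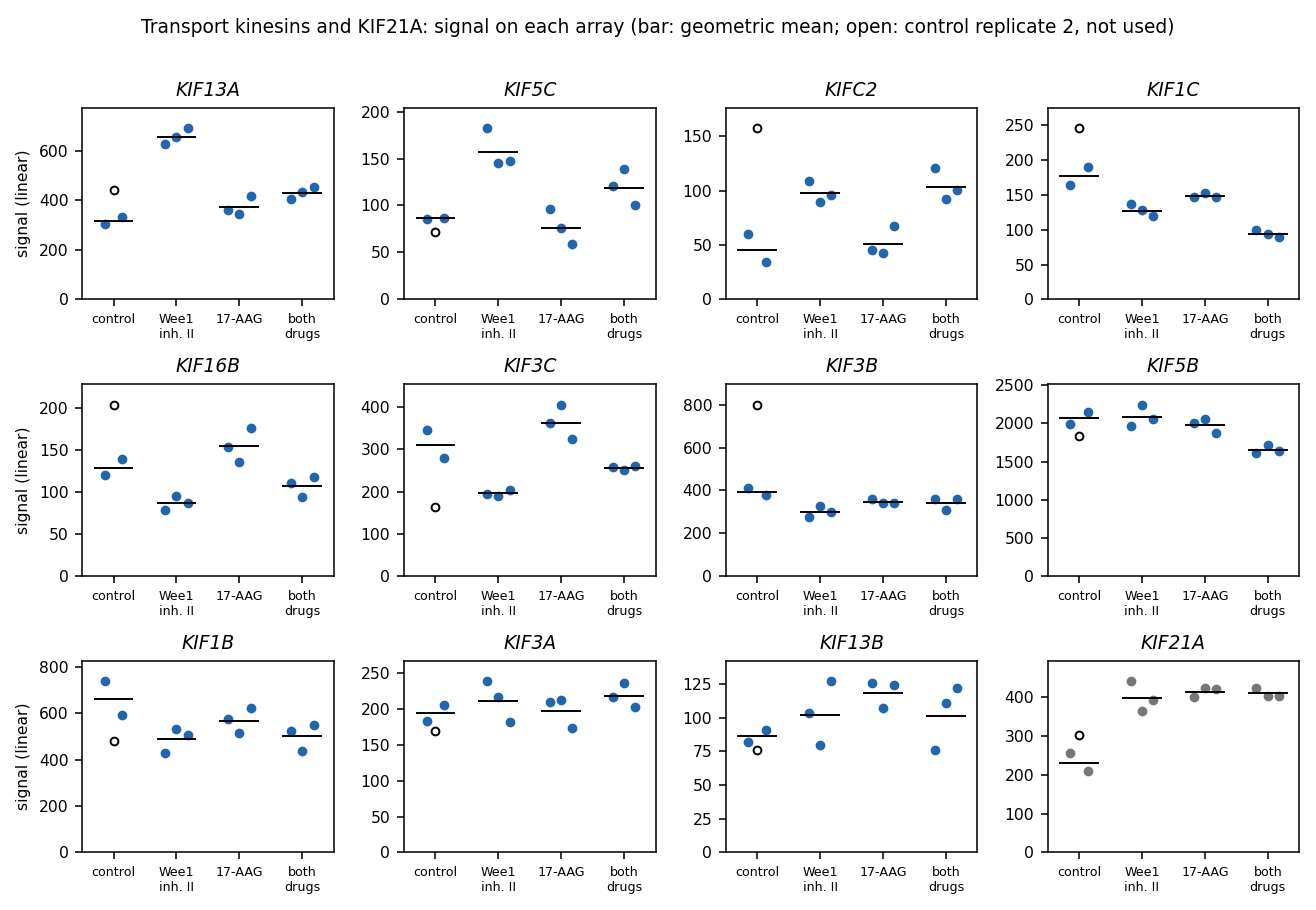
Signal (linear scale) on every array for the 11 transport kinesins with a mean signal of at least 64 and for KIF21A, drawn as in the mitotic plot. KIF13A, KIF5C and KIFC2 are higher with Wee1 inhibitor II than in control, KIF3C and KIF16B lower, and KIF3A overlaps between all groups.

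By comparison, Wee1 inhibitor II alone raised 3 transport kinesins (KIF13A, KIFC2 and KIF5C) and lowered 4 (KIF3C, KIF16B, KIF1C and KIF3B) of 15, where 14.5% of all genes were called higher and 10.3% lower. The count fell to 4 without control replicate 1, 3 without Wee1 inhibitor II replicate 1 and 2 without control replicate 3. With 17-AAG, limma called 0 of 15 (9.93% of all genes were called higher), with 2 at an unadjusted p under 0.05. Set against 17-AAG, Wee1 inhibitor II arrays were higher for KIF13A (0.82 ± 0.10 (adjusted p = 0.000851)), KIF5C (1.06 ± 0.20 (adjusted p = 0.0072)) and KIFC2 (0.94 ± 0.25 (adjusted p = 0.0318)) and lower for KIF16B (-0.83 ± 0.14 (adjusted p = 0.00423)) and KIF3C (-0.89 ± 0.11 (adjusted p = 0.00105)).

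Adding Wee1 inhibitor II to 17-AAG changed 4 of 15 transport kinesins, where 19.3% of all genes were called. KIFC2 rose (1.03 ± 0.25 (adjusted p = 0.0218)), and KIF1C (-0.67 ± 0.09 (adjusted p = 0.00159)), KIF3C (-0.50 ± 0.11 (adjusted p = 0.0148)) and KIF16B (-0.53 ± 0.14 (adjusted p = 0.0306)) fell. Without both-drug replicate 1, 2 of these calls were left. Adding 17-AAG to Wee1 inhibitor II lowered 3, where 14.1% of all genes were called: KIF13A (-0.61 ± 0.10 (adjusted p = 0.00403)), KIF1C (-0.44 ± 0.09 (adjusted p = 0.0124)) and KIF5B (-0.34 ± 0.08 (adjusted p = 0.0278)). Only 1 was called without both-drug replicate 3.

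Most of the 14 other kinesins were dim. With Wee1 inhibitor II 2 of them were called higher, with 17-AAG 1 rose, and with both drugs 2 rose and 1 fell, where 24.9%, 16.7% and 28.0% of all genes were called in either direction. These counts are at or below the shares of all genes. KIF21A, which curbs microtubule growth at the cell edge, read 255 and 208 in control, 440.5, 364 and 392 under Wee1 inhibitor II, 398, 423 and 419.9 under 17-AAG and 422, 402 and 403 under both. All treated arrays were above both controls by a similar amount, with log2 fold changes of 0.79 ± 0.12 (adjusted p = 0.00188), 0.84 ± 0.12 (adjusted p = 0.00282) and 0.83 ± 0.12 (adjusted p = 0.00108) for Wee1 inhibitor II, 17-AAG and both drugs. The both-drug value lay between those of the single drugs, and its interaction was -0.80 ± 0.16 (adjusted p = 0.0149). KIF2A, a depolymerase of spindle poles and neurites related to KIF2C, read 483 and 619 in control and 436, 397 and 420.2 with both drugs. The fall was small (-0.39 ± 0.11 (adjusted p = 0.0319)), and the call was lost under 9 alternatives and its sign turned with control replicate 2 included. KIF9 read 352 and 395 in control and 443, 485 and 488 with both drugs, a value of 0.34 ± 0.13 (adjusted p = 0.101) that was not called. The 11 dim members ranged from 1.23 to 73.7 over the arrays. Among them KIF7, the Hedgehog pathway kinesin of the cilium, read 8.07 and 26.8 in control and 58.6, 49.6 and 73.7 with both drugs (2.02 ± 0.61 (adjusted p = 0.0386)), and it also rose against 17-AAG (2.39 ± 0.54 (adjusted p = 0.017)). With signals below 32 set to 32, both KIF7 differences were 0.90 and stayed called. KIF12, the other member called with Wee1 inhibitor II, read 7.20 and 3.04 in control and 13.8, 22.0 and 22.2 with that drug. All KIF12 signals were below 32, so that its difference is 0 with that floor, and no level above background was shown for it.

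Partners of mitotic kinesins on the spindle and midzone were also lower with both drugs. Of 16 measured, 13 fell with both drugs, with a median of -1.55, where 11.3% of all genes were called lower. AURKB, the kinase of the chromosomal passenger complex, fell by 2.49 on the log2 scale (SE 0.15, adjusted p = 2.41e-05). BIRC5, its survivin subunit (-2.22 ± 0.09 (adjusted p = 9.46e-06)), and PRC1, the microtubule bundler that guides KIF4A and KIF20A (-1.78 ± 0.08 (adjusted p = 9.46e-06)), fell too. INCENP (0.02 ± 0.16 (adjusted p = 0.96)), NUMA1 (0.27 ± 0.13 (adjusted p = 0.19)) and CKAP5 (-0.33 ± 0.12 (adjusted p = 0.0776)) were not called. With Wee1 inhibitor II 4 of the 16 fell and with 17-AAG 5, and 13 had a called negative interaction, where 10.3%, 6.80% and 6.97% of all genes were called in that direction. CENPE, itself a kinesin of the kinetochore although its symbol does not begin with KIF, fell with both drugs (-2.08 ± 0.10 (adjusted p = 1.32e-05)).

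Of 8 general proliferation genes, all 8 fell with both drugs, with a median of -1.59, where 11.3% of all genes were called lower. MKI67, the proliferation antigen, changed by -3.27 ± 0.31 (adjusted p = 0.000161), CCNA2, a cyclin of S phase and entry into mitosis, by -1.99 ± 0.09 (adjusted p = 1.17e-05), and CCNB1, the cyclin of mitotic entry, by -1.46 ± 0.08 (adjusted p = 1.98e-05). With Wee1 inhibitor II 4 fell and TOP2A, the topoisomerase that untangles chromosomes, rose (0.37 ± 0.09 (adjusted p = 0.0162)), and with 17-AAG 4 fell, where 10.3% (lower) and 14.5% (higher) of all genes were called with the first drug and 6.80% (lower) with the second.

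Genes that work with transport motors moved in both directions. Of 12 cargo partners, 4 rose and 1 fell with both drugs (median 0.47), where 16.7% of all genes were called higher and 11.3% lower. TRAK1, the adaptor of mitochondria (1.02 ± 0.12 (adjusted p = 0.000526)), KIFBP, a kinesin-binding protein (0.55 ± 0.10 (adjusted p = 0.00327)), and KLC1, a kinesin light chain (0.74 ± 0.13 (adjusted p = 0.00331)), rose, and KIFAP3, the subunit that joins KIF3A and KIF3B to cargo, fell (-0.65 ± 0.18 (adjusted p = 0.0269)). Dynein and dynactin form the opposing minus-end motor. Of its 16 genes, 4 rose and 2 fell with both drugs (median 0.12, against 0.11 over all genes), where 28.0% of all genes were called in either direction. Among them were DYNLL1 (0.56 ± 0.09 (adjusted p = 0.00184)), DYNC1LI2 (0.50 ± 0.09 (adjusted p = 0.00342)) and DYNC1LI1 (-0.51 ± 0.10 (adjusted p = 0.00452)). DYNC1I1, an intermediate chain, fell with Wee1 inhibitor II alone (-1.52 ± 0.15 (adjusted p = 0.000279)) and rose with both drugs (0.70 ± 0.15 (adjusted p = 0.00772)), with an interaction of 1.76 ± 0.19 (adjusted p = 0.00185).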

How the data were processed

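Per the labels' protocols, 100 ng of RNA per sample was biotin labelled with a 3′ in vitro transcription kit and hybridised. The deposited values are intensity values; per the submitters' processing notes, Partek 6.5 and RMA were used, but order and settings are not given in the sources used here. The values were linear (0.0212 to 17908, with a 2% trimmed mean of 150 on all 12 arrays and medians of 17.7 to 23.1 on the 11 used), unlike the log2 scale of RMA, and were therefore log2 transformed without further normalisation. Depth does not apply to arrays; their number limits precision. No detection calls were used.

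Of 54675 probe sets, 62 were controls, 41091 carried 1 gene symbol, 1801 several and 11721 none; symbols were updated by gene ID, and 42 were not found there. The brightest set per symbol on the 11 arrays was kept. Groups follow the sample titles. limma 3.58.1 (R 4.3.3) fitted group means over 11 arrays (7 residual and 1.12 prior degrees of freedom, prior SD 0.19), with Benjamini-Hochberg adjustment over 19775 genes and calls at an adjusted p under 0.05. There were 7 comparisons: 6 pairwise and the interaction. Errors are standard errors of the fit; the procedure was tested on simulated data. A second KIF3A set and other second sets come from a fit of all 1-symbol probe sets.

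The kinesins, lists and naming rule were chosen with earlier results of these data known. Always named were KIF11, KIF2C, KIF4A, KIF14, KIF18A, KIF20A, KIF23, KIFC1, KIF5B, KIF1B, KIF1C, KIF3A, KIF3B and KIF13A, with up to 8 further called kinesins per comparison by smallest p at a mean signal of at least 64, each kinesin with a called interaction, and up to 3 partners per list. Other names were added after their values were seen. Promoter windows are RefSeq's, on GRCh38.p14.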

Additional observations from a re-analysis of the deposited data

Results flagged for a closer look

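The drug interaction, which tests whether the change with Wee1 inhibitor II differs in the presence of 17-AAG, passed the threshold for 12 kinesins, all negative on the log2 scale. Among mitotic kinesins it was -2.23 for KIF15, -1.80 for KIF14, -1.70 for KIF11, -1.57 for KIF2C, -1.43 for KIF4A and -1.09 for KIF23. It was -1.04 for KIF20A, -0.97 for KIFC1, -0.96 for KIF20B and -0.76 for KIF18A. The other kinesins with a called value were KIF13A (-0.84) and KIF21A (-0.80). In these both drugs together gave a smaller rise than the single changes add up to, while in the mitotic genes their joint value lay below that sum.

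On control replicate 2, which the submitters removed, KIF3B had a signal of 801. That is at least 1.5 times its signal on every other array, a limit chosen after seeing the data. Of the 41 kinesins, 12 were lower and 9 higher on that array than on all of the 11 others. The share of all genes that did so was not computed, so these counts show nothing particular to kinesins.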

How the results depend on the processing

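A fit meant to use only the groups compared kept all 11 arrays, so it repeated the reported fit and could not differ. It is counted among the 24 alternatives (23 for the interaction, where it was not run) under which the counts of called kinesins were recomputed. With both drugs against control, all 12 mitotic kinesins were called under each of them except with averaged probe sets, which gave 11, and with control replicate 2 included unweighted, which gave 7. That setting also gave 2 for the interaction, 6 against 17-AAG and 7 against Wee1 inhibitor II, and 0 for each single drug against control and for the single drugs against each other. For transport kinesins it gave 2 with Wee1 inhibitor II, 1 with both drugs, 0 for both drugs against either single drug, 2 between the single drugs and 0 for the interaction.

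Mitotic counts with Wee1 inhibitor II rose to 5 with median centring, without the dimmest 40% of genes and with trended, robust empirical Bayes, and those with 17-AAG rose to 6 under the last pair. Between the single drugs 1 mitotic kinesin was called, higher with Wee1 inhibitor II, with averaged probe sets, every probe set tested or the replicate block. With median centring KIF20A and KIF22 were not called, and KIF23 was called lower with Wee1 inhibitor II instead. An adjusted p under 0.01 gave 0 between the single drugs and 0 with 17-AAG. Transport counts under that threshold were 3 with Wee1 inhibitor II and 1 each for both drugs against control, 17-AAG and Wee1 inhibitor II. Averaging a gene's probe sets gave transport counts of 2, 1 and 0 for Wee1 inhibitor II, both drugs and the interaction. With every probe set tested, a gene was counted as called if any of its sets was called, whichever the direction of that set. That gave 3 with 17-AAG, 2 for the interaction and 5 for both drugs against Wee1 inhibitor II, where median centring gave 1.

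Leaving out 1 array at a time gave mitotic counts of 1 to 4 with Wee1 inhibitor II, 0 to 4 with 17-AAG, 12 with both drugs, 11 to 12 against 17-AAG, 12 against Wee1 inhibitor II, 0 to 2 between the single drugs and 7 to 10 for the interaction. Transport counts were 2 to 7, 0, 2 to 4, 2 to 4, 1 to 4, 4 to 5 and 1 in the same order.

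For the 26 brighter kinesins, with the repeat of the reported fit counted, 2037 values were called by the reported or the alternative analysis. Of them 1775 kept direction and call, 199 lost a call, 57 gained one and 6 turned in sign. Of 2305 values called by neither, 111 turned in sign, 19 of them with control replicate 2 included, 17 with median centring and 14 with averaged probe sets. The 6 called values that turned were KIF1C at 0.17 with Wee1 inhibitor II and 0.15 with both drugs, and KIF20B at 0.24 for both drugs against 17-AAG and 0.071 for the interaction, all with probe sets averaged. With control replicate 2 included, KIF23 was at 0.26 with Wee1 inhibitor II and KIF2A at 0.027 with both drugs. The cause was not tested. Replicates share only a number: deviations of same-numbered arrays correlated at -0.12 to 0.08 over 15 pairs, and 2 of 11 arrays correlated best with their own number. The replicate block changed no other count by over 1.5 times.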
